A study of Danio rerio with 16 samples.

Results

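The expression of 10 genes for secreted proteins of the liver, the yolk and the blood plasma was followed through dissected zebrafish hearts. They were *apoa1a*, *apoa1b*, *apoa2*, *apoea*, *apoeb*, *apobb.1*, *rbp4*, *tfa*, *fgb* and *serpina1*, taken by exact symbol from the deposited count tables. All 10 of the 10 symbols were found among the 15419 genes counted, and none was absent. The hearts came from embryos of the Tubingen strain at 48 h post-fertilization (hpf). The 8 DKO libraries came from embryos homozygous for mutations in both *rbfox1l* and *rbfox2* (*rbfox1l*-/-; *rbfox2*-/-, alleles *chb5* and *chb6*, made with CRISPR-Cas9), whose products are RNA-binding regulators of splicing. The 8 CTRL libraries came from sibling controls, which the description of the series calls wild type. Embryos of both groups carried the *myl7:GFP* reporter, driven in cardiomyocytes, and each library was made from poly(A) RNA of a pool of whole hearts, so that no value belongs to an individual embryo. The labels give no further genotype of the sibling controls.

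Apolipoproteins are the protein part of lipoprotein particles, which carry lipids through the blood. ApoA-I and ApoA-II are carried on high-density particles, ApoB is the structural protein of the large lipid-rich particles, and ApoE is a ligand of lipoprotein receptors. In the zebrafish embryo the yolk syncytial layer, which surrounds the yolk, makes many of these proteins before the liver takes over. Zebrafish keep duplicate copies of several of these genes, such as *apoa1a* and *apoa1b* or *apoea* and *apoeb*. Zebrafish *apoeb* is also known from the skin and from microglia. The other genes encode the carrier of retinol in plasma (*rbp4*), the carrier of iron (*tfa*), the beta chain of fibrinogen, from which clots are formed (*fgb*), and an inhibitor of serine proteases (*serpina1*).

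Between 9321265 and 18783628 reads were counted on genes in DKO libraries, and between 8809208 and 12991978 in CTRL libraries. The targeted genes were examined first. The median of *rbfox1l* was 62.5 CPM (counts scaled to library size with edgeR's TMM factors) in DKO hearts and 426 CPM in CTRL hearts, and that of *rbfox2* was 29.8 CPM in DKO hearts and 81.3 CPM in CTRL hearts. In both genes the highest DKO library was below the lowest CTRL library. The defining cardiomyocyte markers *nkx2.5*, *nppa* and *tbx20* were present in all 16 libraries, with medians of 103, 5413 and 82.0 CPM in DKO hearts and of 169, 9038 and 147 CPM in CTRL hearts. The summed cardiomyocyte markers ranged from 7363 to 17896 CPM in DKO and from 16917 to 33421 CPM in CTRL hearts, and the summed haemoglobin genes from 8.68 to 68.9 CPM in DKO and from 3641 to 9340 CPM in CTRL hearts. In bulk RNA, fewer cells of a type and less RNA per cell cannot be told apart. Replicates of a group are separate pools, and p-values measure the spread between these pools.

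Of the 10 genes, 1 passed the test of DKO against CTRL. *apoeb* was higher in DKO hearts, and the other 9 did not pass at an adjusted p-value under 0.05 in edgeR's quasi-likelihood test. Across all 11750 genes tested, 27.1% passed, 13.2% as higher and 13.9% as lower in DKO, so that the share of the 10 genes was not above this background. None of the 10 was called lower, by edgeR, at an unadjusted p-value under 0.05 (0 genes) or by DESeq2 (0 genes), and both tools called 1 gene higher. Fold changes were positive for 7 genes and negative for 3, with a median of 0.12 on the log2 scale, against 0.02 over all genes tested. With scaling on the cardiomyocyte markers instead of TMM, which moved the median of all genes up by 0.79, 7 of the 10 were called higher and 0 lower, against 68.4% of all genes called higher in that setting, and their median of 0.99 stood against 0.82 over all genes. None of the 10 had groups that did not overlap, which was the case for 5.68% of all genes tested. The 10 genes together took 0.136% to 0.366% of the reads on genes in DKO libraries and 0.0945% to 0.288% in CTRL libraries. The called *apoeb* weighed most in this share. Its medians were 1162 CPM in DKO and 511 CPM in CTRL libraries, against 2649 and 1641 CPM for the sum of the 10.

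**Figure D1:**
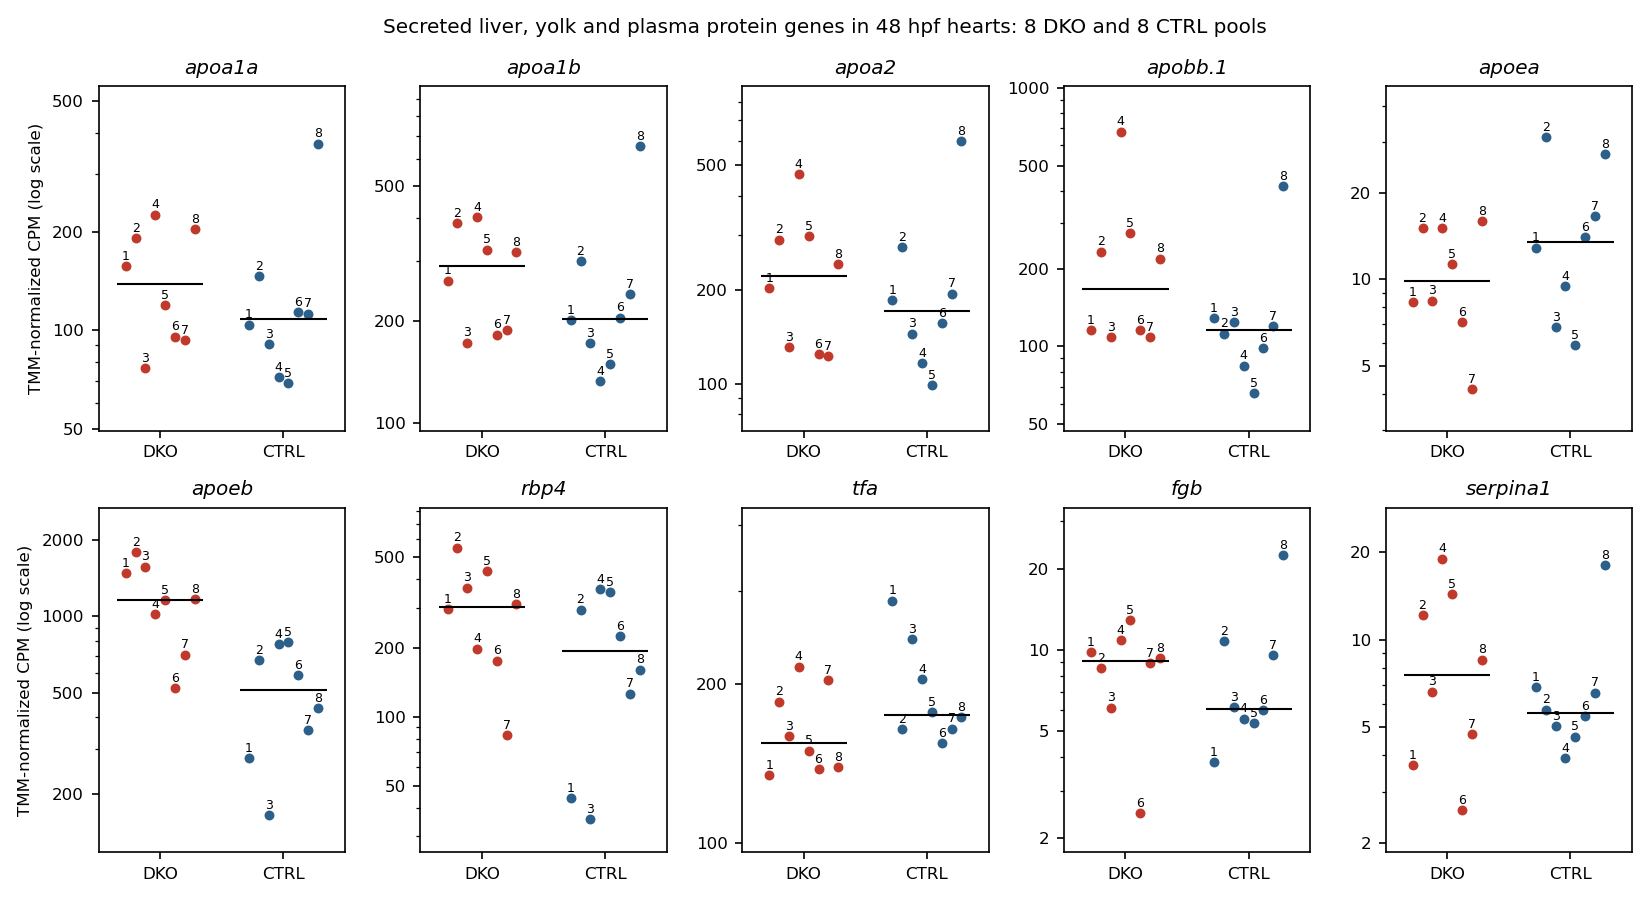
TMM-normalized CPM of each gene (log scale) in the 8 DKO and 8 CTRL pools; each point is a pool with its replicate number, and lines are group medians. In *apoeb* 6 DKO pools lie above all CTRL pools, whereas CTRL 8 is the highest CTRL pool of *apoa1a*, *apoa1b*, *apoa2*, *apobb.1*, *fgb* and *serpina1*.

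The ApoE pair was described first, since it held the called gene. *apoeb* had 522 CPM in the lowest DKO library, a median of 1162 and 1784 in the highest, against 165, 511 and 789 CPM in CTRL libraries. DKO 2, 3 and 1 were highest, 6 of the 8 DKO libraries lay above every CTRL library, and only DKO 6 and 7 fell within the CTRL range. The log2 fold change was 1.21 (SE 0.31), or 2.32-fold, with an adjusted p of 0.00765 in edgeR's quasi-likelihood test. *apoeb* also met the thresholds of the study's methods, which ask in addition for a change above 1.5-fold and more than 5 FPKM (fragments scaled both to library size and to gene length) in at least 1 library. These thresholds were met by 3.32% of all genes tested in the higher and by 4.66% in the lower direction. The lowest CTRL values belonged to CTRL 3 and 1, with 165 and 276 CPM. Both also had the least epidermis signal of the CTRL libraries, described below, and were left out together on that ground, a choice made after seeing the data. Without CTRL 3 and 1 the log2 fold change was 0.96 (adjusted p = 0.01327, edgeR). The difference in epidermis signal was not removed by this choice. The summed epidermis markers of the remaining CTRL libraries were 13354 to 33894 CPM, against 26894 to 59310 CPM in DKO libraries.

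*apoea*, the other ApoE gene, was scarce. Its values ran from 4.18 over a median of 9.88 to 15.9 CPM in DKO libraries, and from 5.91 over a median of 13.5 to 31.2 CPM in CTRL libraries. The groups overlapped almost throughout, and CTRL 2 and 8 were the highest of all 16 libraries. The log2 fold change was -0.53 (SE 0.34, adjusted p = 0.2793, edgeR). Since the 2 genes are copies that arose by duplication, their ratio was taken within each library, where it does not depend on the scaling between libraries. The called *apoeb* enters this ratio, so a difference of the ratio is not independent of that call. The log2 ratio of *apoeb* over *apoea* had a median of 6.73 in DKO hearts (6.03 to 7.45) and of 4.45 in CTRL hearts (3.97 to 6.94). All 8 DKO libraries lay above the CTRL median and 3 lay above every CTRL library. The difference of the means was 1.70 (SE 0.43; two-sided exact permutation test, p = 0.003419, adjusted p = 0.01368 over 4 ratios).

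The genes of the high-density particle proteins did not pass the test. *apoa1a* had 76.7, 138 and 226 CPM as the lowest, median and highest values in DKO libraries, against 69.0, 108 and 372 CPM in CTRL libraries. *apoa1b* had 172, 291 and 404 CPM in DKO libraries, against 133, 203 and 654 CPM in CTRL libraries. *apoa2* had 123, 222 and 469 CPM in DKO libraries, against 98.9, 171 and 598 CPM in CTRL libraries. In all 3 genes CTRL 8 was the highest of the 16 libraries and DKO 4 the highest of the DKO libraries, and no DKO library lay outside the CTRL range. The log2 fold changes were 0.11 (SE 0.34) for *apoa1a*, 0.13 (SE 0.30) for *apoa1b* and 0.09 (SE 0.37) for *apoa2*. The adjusted p-values of edgeR were 0.8605, 0.8125 and 0.9023. These fold changes moved most with CTRL 8, and were 0.53, 0.49 and 0.50 without it. Without DKO 4 they were -0.012, 0.032 and -0.14, but without CTRL 4 they were likewise near 0, at 0.014, 0.030 and -0.0080. None of them passed the test with any of these libraries left out. The medians of the DKO libraries were higher in all 3 genes, but the spread within CTRL, up to 6.05-fold between the highest and lowest library in *apoa2*, was far larger than the difference. The upper end of that spread was CTRL 8 alone, and the next CTRL library had 274 CPM of *apoa2*.

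The copies *apoa1a* and *apoa1b* had nearly the same mean proportion in both groups, but it varied more among DKO pools. The log2 ratio ran from 0.65 to 1.43 in DKO and from 0.81 to 1.11 in CTRL libraries. Of the DKO libraries, 2 lay above and 2 below every CTRL library. The log2 ratio of *apoa1b* over *apoa1a* averaged 0.97 ± 0.25 in DKO and 0.95 ± 0.11 in CTRL hearts (SD, n = 8 each), a difference of 0.02 (SE 0.10; adjusted p = 0.8605, two-sided exact permutation test). The log2 ratio of *apoa2* over *apoa1b* averaged -0.33 ± 0.26 in DKO and -0.26 ± 0.16 in CTRL hearts, a difference of -0.07 (SE 0.11; adjusted p = 0.7041, two-sided exact permutation test). Neither difference exceeded the spread between pools.

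*apobb.1*, a gene for ApoB, had 108 CPM in the lowest DKO library, a median of 167 and 679 in the highest, against 66.0, 116 and 416 CPM in CTRL libraries. The highest values stood far apart in both groups, at DKO 4 and CTRL 8, whereas 4 DKO libraries lay between 108 and 116 CPM. The log2 fold change was 0.69 (SE 0.45, adjusted p = 0.2953, edgeR). This value rested on those 2 libraries. It was 0.23 (adjusted p = 0.7287) without DKO 4, and 1.16 (adjusted p = 0.03882) without CTRL 8, where *apobb.1* was called as well as *apoeb*.

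*rbp4*, the plasma retinol carrier, had 83.1 CPM in the lowest DKO library, a median of 303 and 550 in the highest, against 35.7, 193 and 363 CPM in CTRL libraries. DKO 2, 5 and 3 lay above every CTRL library, and CTRL 3 and 1 were the lowest of all, with 35.7 and 44.1 CPM. The log2 fold change of 0.59 (SE 0.47) did not pass (adjusted p = 0.403, edgeR). Its relative *rbp4l* was much scarcer, with medians of 27.97 CPM in DKO and 9.28 CPM in CTRL hearts, and was higher in DKO (1.83 on the log2 scale, SE 0.48, adjusted p = 0.008459, edgeR). The log2 ratio of *rbp4* over *rbp4l* had a median of 3.49 in DKO and 4.27 in CTRL hearts. The difference of the means, -0.83 (SE 0.44), did not pass (adjusted p = 0.174 over 4 ratios, two-sided exact permutation test), but without DKO 1 it was -1.07 with an adjusted p of 0.0404.

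*tfa*, the transferrin gene, was the steadiest of the 10. Its values were 134, 155 and 216 CPM in DKO libraries (lowest, median, highest), against 154, 175 and 287 CPM in CTRL libraries. Of the DKO libraries, 4 lay below every CTRL library, and CTRL 1 and 3 were the highest of all 16 with 287 and 243 CPM. The coefficient of variation was 19.1% in DKO and 23.8% in CTRL, whereas the other 9 genes had 33.2% to 83.1% in DKO and 46.2% to 78.1% in CTRL. The log2 fold change was -0.24 (SE 0.14, adjusted p = 0.2132, edgeR).

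*fgb* and *serpina1* were near the lower end of what was tested, with as few as 23 and 24 reads in a library. *fgb* had 2.48, 9.11 and 12.9 CPM in DKO libraries, against 3.83, 6.05 and 22.5 CPM in CTRL libraries. *serpina1* had 2.59, 7.57 and 19.0 CPM in DKO libraries, against 3.90, 5.60 and 18.1 CPM in CTRL libraries. Again CTRL 8 was the highest CTRL library of both genes, and DKO 6 the lowest of all 16 in both. The log2 fold changes were -0.01 (SE 0.34, adjusted p = 0.9841, edgeR) for *fgb* and 0.36 (SE 0.39, adjusted p = 0.5642) for *serpina1*. Without CTRL 8 they were 0.36 for *fgb* and 0.73 for *serpina1*, and without DKO 4 -0.069 and 0.10, with no call in either case. The count of *serpina1* is uncertain, since it lies next to its close relative *serpina1l* (RefSeq, GRCz12tu assembly). Reads that fit both equally well are not unique and were counted for neither.

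**Figure D2:**
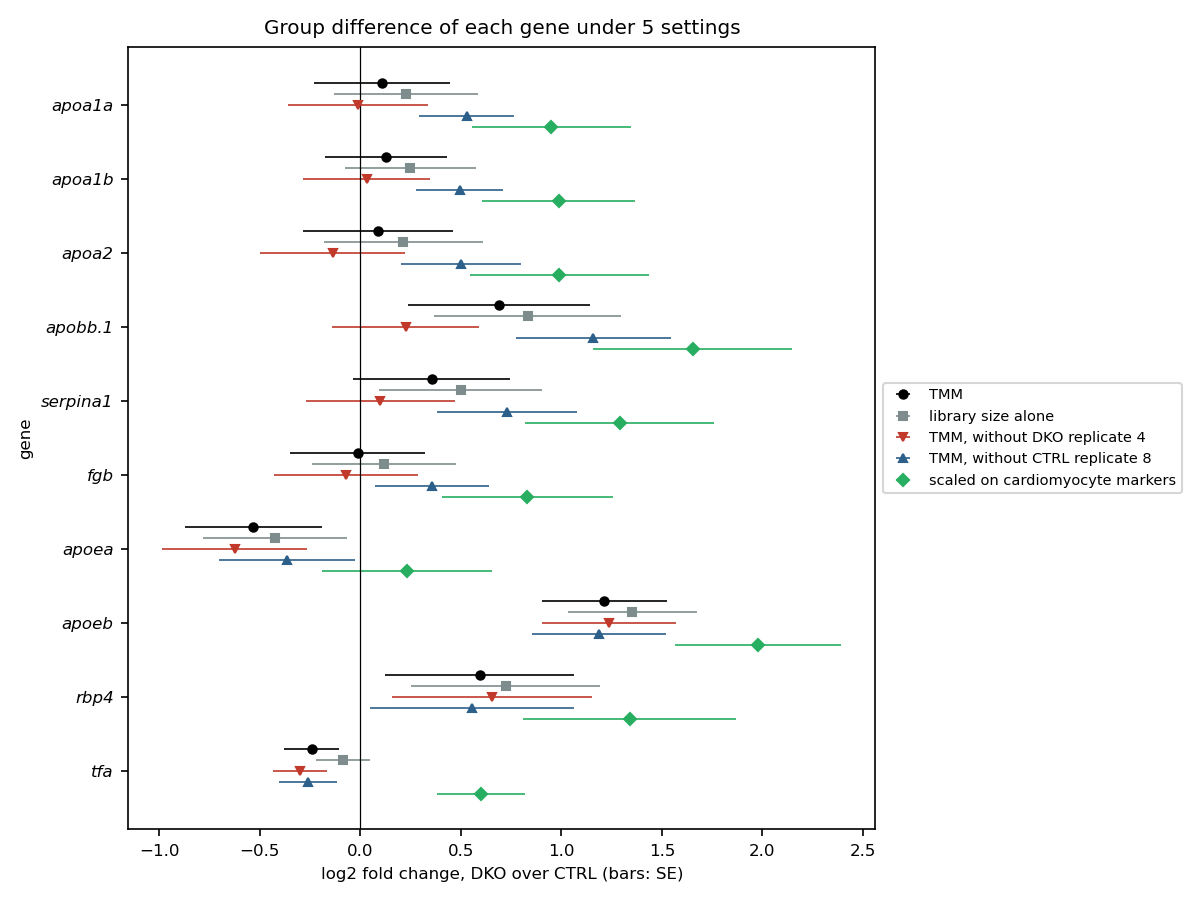
Log2 fold change of each gene, DKO over CTRL, with its SE as bars, under TMM scaling, library size alone, TMM without DKO 4 or without CTRL 8, and scaling on cardiomyocyte markers. *apoeb* lies between 1.19 and 1.98 under all 5, *apobb.1* is at 0.23 without DKO 4 and at 1.16 without CTRL 8, and *tfa* lies at -0.24 with TMM and at 0.60 with the cardiomyocyte scaling.

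The levels of different genes were compared per length, in the deposited FPKM, in which each count is divided by roughly the full span of the gene, introns included. *apoa1a* has no row in that table. The order of the medians in DKO hearts was *apoeb* (429 FPKM), *apoa2* (181), *apoa1b* (124), *rbp4* (76.3), *tfa* (14.3), *apobb.1* (11.5), *serpina1* (2.54), *apoea* (2.38) and *fgb* (1.24). In CTRL hearts it was *apoeb* (178 FPKM), *apoa2* (123), *apoa1b* (77.2), *rbp4* (45.9), *tfa* (15.03), *apobb.1* (7.34), *apoea* (2.79), *serpina1* (1.85) and *fgb* (0.77). The order was thus the same in both groups except for *apoea* and *serpina1*. Since the spans include introns, the order between genes also reflects their length and is not an order of transcript levels alone. In CTRL hearts the ranges of all neighbours in this order overlapped. In DKO hearts they overlapped except at 2 steps, between *rbp4* (at least 21.2 FPKM) and *tfa* (at most 20.6 FPKM), and between *apobb.1* (at least 7.54 FPKM) and *serpina1* (at most 6.84 FPKM).

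The genes were then compared from pool to pool. For each gene, the deviation of each library from the mean of its own group was taken on the log2 scale, so that the difference between DKO and CTRL does not enter. These correlations describe 16 libraries, which share their depth and scaling across genes, and carry no test. They divided the genes into a set of 7, a pair, and *tfa*. In the set of 7, *apoa1a*, *apoa1b*, *apoa2*, *apobb.1*, *serpina1*, *fgb* and *apoea*, the 21 pairs had Pearson r of 0.58 to 0.97, with a median of 0.81. Without the 2 libraries farthest from the median of the gene named first, r was 0.39 to 0.96. CTRL 8 and DKO 4 were high for all 7. CTRL 8 was highest of its group for all of them except *apoea*. DKO 4 was highest of its group for *apoa1a*, *apoa1b*, *apoa2*, *apobb.1* and *serpina1*. Low libraries also deviated, such as DKO 6, the lowest of its group for *fgb* and *serpina1*.

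**Figure D3:**
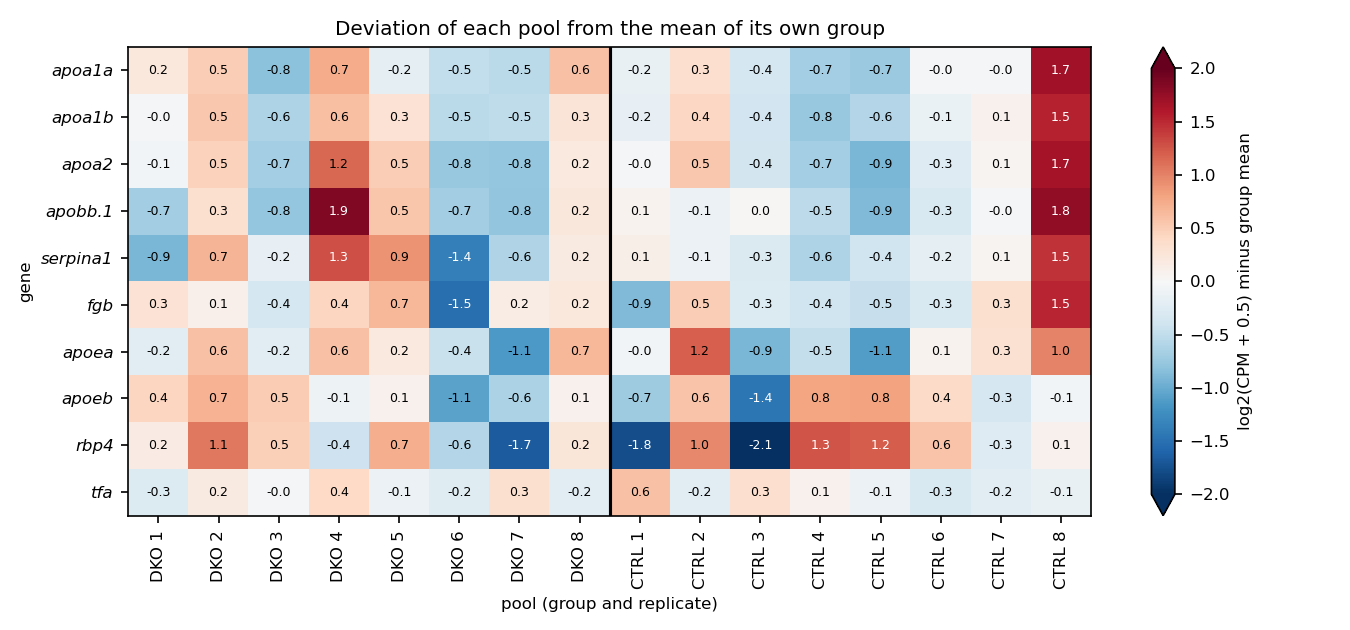
Deviation of each pool from the mean of its own group on the log2(CPM + 0.5) scale, for the 10 genes (rows) in the 8 DKO and 8 CTRL pools (columns); red is above and blue below the group mean. The upper 7 rows are red in CTRL 8 and DKO 4, whereas *apoeb* and *rbp4* are blue in CTRL 1 and CTRL 3, where *rbp4* has 44.1 and 35.7 CPM.

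*apoeb* and *rbp4* formed the pair, with an r of 0.91 and a Spearman rho of 0.94. Against the 7 genes, these 2 had r of -0.10 to 0.35 (14 pairs, median 0.11). The separation was weaker among DKO libraries. These 14 pairs had r of 0.16 to 0.71 (median 0.43) among the 8 DKO libraries. Among the 8 CTRL libraries they had -0.34 to 0.21 (median -0.09). The 21 pairs within the set of 7 had 0.36 to 0.96 (median 0.79) in DKO and 0.61 to 0.99 (median 0.90) in CTRL. The ranges thus overlapped in DKO, where *apoea* had an r of 0.71 with *rbp4* but 0.36 with *fgb*. CTRL 8, highest of the CTRL libraries for 6 of the 7 genes, was in the middle of the CTRL libraries for *apoeb* and *rbp4*. *tfa* had r of -0.59 to 0.22 with the other 9 genes, and was lowest against *rbp4*.

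**Figure D4:**
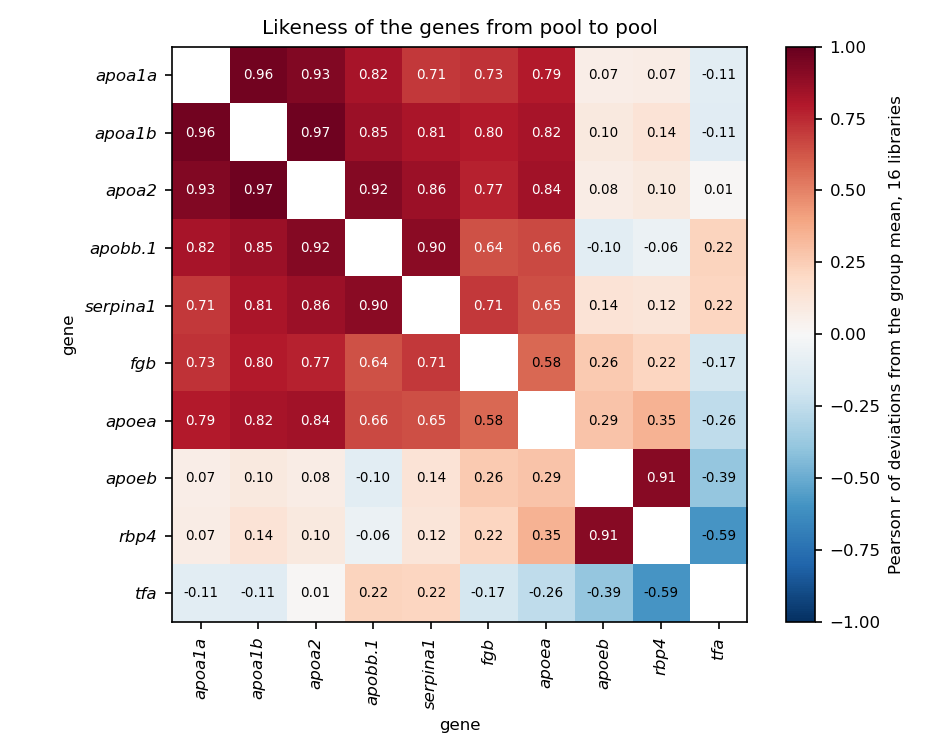
Pearson r between the genes over 16 libraries, each value taken as deviation from its group mean. The block of 7 genes at the upper left has r of 0.58 to 0.97, *apoeb* and *rbp4* have 0.91, and *tfa* has at most 0.22 with any other gene.

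Among the 8479 other genes with enough reads for this comparison, those most like each gene from pool to pool mostly followed the same division. The nearest genes to *apoa1a* were *apoa1b* (r = 0.96), *apoa4b.1* (0.95) and *apoa2* (0.93), all apolipoproteins. For *apoa1b* they were *apoa2* (0.97), *apoa1a* (0.96) and *apoa4b.1* (0.95). For *apoa2* they were *apoa1b* (0.97), *zgc:123103* (0.96) and *a2ml* (0.94), a relative of the plasma protease inhibitor alpha-2-macroglobulin. *apobb.1* was most like *apoa2* (0.92), *a2ml* (0.91) and *apoc2* (0.90), whose product is the cofactor of lipoprotein lipase. *serpina1* was too scarce to be among the genes compared, but was as close to *apobb.1* (0.90). In turn, *serpina1* was most like *apobb.1* (0.90), *apoc2* (0.89) and *apoa2* (0.86). The scarce *apoea* and *fgb* had lower values. Those of *apoea* were led by *gtf3c2* (0.88), *zgc:123103* (0.85) and *apoa2* (0.84). Those of *fgb* were led by the muscle gene *stac3* (0.84), the peptide transporter *slc15a2* (0.82) and the translation factor *eif2d* (0.80), followed by *apoa1b* (0.80). With the summed plasma proteins, a list described below, *fgb* had an r of 0.83. Without the 2 libraries farthest from the median of that sum, this r was 0.50.

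The neighbours of the pair were of another kind. *apoeb* was most like *si:ch211-79k12.1* (0.96), *lum* (0.95), which encodes the matrix proteoglycan lumican, and *aqp3a* (0.94), a water and glycerol channel of epithelia. *rbp4* was most like *krtt1c19e* (0.98), a keratin of basal epidermis, the caspase gene *caspb* (0.96) and the sulfotransferase gene *sult2st1* (0.96). Of these 6 genes, *aqp3a* was called higher in DKO (log2 fold change 1.004, adjusted p = 0.02215, edgeR), and the other 5 were not. *tfa* had no close neighbour, with *rca2.1* (0.74), *ppp1r12c* (0.73) and *sos1* (0.72) as its nearest.

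Position along the chromosome did not divide the genes in the same way. In the RefSeq annotation of GRCz12tu, *apoa4b.2*, *apoeb*, *apoc1*, *apoc4*, *apoa2* and *apoc2* follow each other without another protein-coding gene between them. *apoa4b.2* (r = 0.87), *apoc1* (0.86) and *apoc2* (0.91) varied with *apoa2*, whereas *apoeb*, in the same cluster, had an r of 0.08 with it. With *apoeb*, the r of *apoa4b.2* was 0.24, that of *apoc1* 0.05 and that of *apoc2* 0.02. *apoc4* had at most 4 reads in any library and was not tested. The log2 ratio of *apoeb* over *apoa2*, chosen after seeing the data, had a median of 2.39 in DKO (1.12 to 3.57) and 1.09 in CTRL hearts (-0.46 to 2.99). All 8 DKO libraries were above the CTRL median, but the difference of 1.11 (SE 0.50) had an exact permutation p of 0.04429 and, adjusted over 3 ratios chosen in this way, of 0.1329.

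Markers of the tissues around the heart were summed in each library. The epidermis markers summed to 26894, 41770 and 59310 CPM in DKO libraries (lowest, median, highest), against 8547, 18613 and 33894 CPM in CTRL libraries. Of 22 epidermis genes tested, 18 were higher and 0 lower in DKO (13.2% and 13.9% over all genes tested), with a median log2 fold change of 1.15. At an unadjusted p under 0.05 there were 0 lower as well, and DESeq2 called 19 higher and 0 lower. Of the defining markers, *krt4*, an epidermal keratin, was at 12766 CPM in the median DKO and 4631 CPM in the median CTRL library (log2 fold change 1.27, adjusted p = 0.002956, edgeR). *tp63*, the transcription factor of basal epidermis, was at 123 CPM in DKO and 47.8 CPM in CTRL (0.99, adjusted p = 0.02038). *krt5* and *epcam* were near 0, with at most 35 and 2 reads in a library. Genes called with the lowest adjusted p were *evpla* (2.17), *cdh1* (1.07), *ppl* (1.75) and *anxa1c* (1.58, all log2 fold changes), which belong to cell junctions, the envelope of epithelial cells and the annexins.

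*apoeb* and *rbp4* varied with this sum from pool to pool, most closely in CTRL. Over deviations from the group means, the r with the summed epidermis markers was 0.86 for *apoeb* (rho 0.86; 0.79 without the 2 libraries farthest from the median) and 0.89 for *rbp4* (rho 0.86; 0.84 without these 2). It was 0.67 and 0.71 among the 8 DKO libraries, and 0.95 and 0.96 among the 8 CTRL libraries. With the summed cardiomyocyte markers the r was of the opposite sign. It was -0.36 for *apoeb* and -0.30 for *rbp4* among DKO, and -0.85 and -0.92 among CTRL libraries. More epidermis and less heart tissue in a pool were therefore not told apart. Among the DKO libraries alone, other lists gave higher values. There, *apoeb* had an r of 0.76 with the summed other apolipoproteins and of 0.73 with the summed plasma proteins, and *rbp4* had 0.72 with the other apolipoproteins. The other 8 genes had r with the epidermis sum of -0.43 (*tfa*) to 0.20 (*apoea*) over all 16 libraries, of -0.04 (*tfa*) to 0.58 (*apoa1b*) among DKO and of -0.62 (*tfa*) to 0.07 (*apoea*) among CTRL libraries. The contrast between *apoeb* or *rbp4* and the other genes was thus mostly seen among CTRL libraries. CTRL 3 and 1, the lowest libraries of *apoeb* and *rbp4*, also had the lowest epidermis sums of all 16, 8547 and 9343 CPM, and the highest cardiomyocyte sums, 29903 and 33421 CPM.

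**Figure D5:**
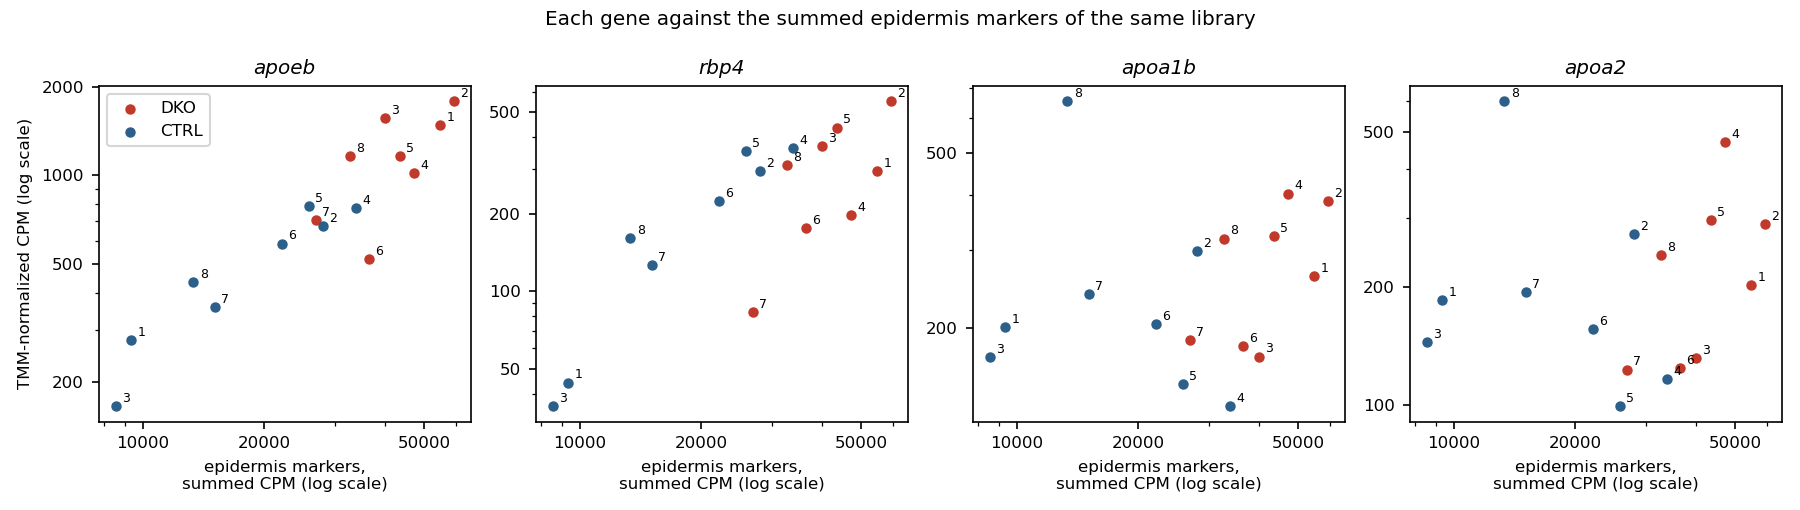
TMM-normalized CPM of *apoeb*, *rbp4*, *apoa1b* and *apoa2* against the summed CPM of the epidermis markers of the same library (both axes logarithmic), DKO pools in red and CTRL pools in blue with their replicate numbers. *apoeb* and *rbp4* lie low in CTRL 3 and CTRL 1, where the sum is 8547 and 9343 CPM, and *apoa1b* and *apoa2* are highest in CTRL 8.

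The level of *apoeb* was also taken relative to the summed epidermis markers of the same library. This ratio, chosen after seeing the data, was -5.22 on the log2 scale in the median DKO library (-6.13 to -4.67) and -5.31 in the median CTRL library (-5.69 to -4.94). The difference of the means was 0.04 (SE 0.18; two-sided exact permutation test, adjusted p = 0.8371). For *rbp4* over the epidermis markers, the medians were -7.15 in DKO (-8.33 to -6.64) and -6.59 in CTRL libraries (-7.88 to -6.20). All 8 DKO libraries lay below the CTRL median and 2 below every CTRL library, but the difference of -0.44 (SE 0.32) did not pass (exact permutation test, adjusted p = 0.2564). These ratios were formed because both genes had been seen to vary with this sum, and the sum and *apoeb* were both higher in DKO, so that a small difference of their ratio follows in part from that choice. The ratios are a description, and the part of epidermal cells in the level of *apoeb* was not tested.

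Leukocyte markers also moved with the groups, with 12 of 18 genes higher and 0 lower in DKO (13.2% and 13.9% over all genes tested). At an unadjusted p under 0.05 and by DESeq2 there were 0 lower as well. The sums were 600 to 1372 CPM in DKO and 420 to 692 CPM in CTRL libraries. *lcp1*, an actin-bundling protein of leukocytes, was at 102 CPM in the median DKO and 49.9 CPM in the median CTRL library (log2 fold change 1.09, adjusted p = 0.000139, edgeR). *csf1ra* (0.80, adjusted p = 0.009888) and *spi1b* (0.59, adjusted p = 0.02494) were higher too, whereas *mpeg1.1*, a marker of macrophages, was listed at 0 in all 16 libraries and *ptprc* was absent from the table. Over deviations from the group means in all 16 libraries, the r of the leukocyte sum with *apoeb* was -0.44 and with *rbp4* -0.55. It was -0.25 and -0.47 among DKO libraries, and -0.74 and -0.75 among CTRL libraries. The part of leukocytes in the level of *apoeb* was not tested further.

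Of the liver and endoderm markers, 5 of 15 tested were higher and 1 was lower in DKO (13.2% and 13.9% over all genes tested). The liver-defining *fabp10a* and *hnf4a* were near 0, with at most 19 and 9 reads in a library. *foxa3*, a transcription factor of the gut and liver, was at 33.5 CPM in the median DKO and 13.6 CPM in the median CTRL library (log2 fold change 1.28, adjusted p = 0.002856, edgeR). *cebpa*, also used in epidermis and myeloid cells, was at 94.7 CPM in DKO and 63.4 CPM in CTRL (0.66, adjusted p = 0.000884), and *uox* (2.603) and *foxa1* (1.07) were higher as well. The remaining calls, *foxa2* (1.37, higher) and *cyp2ad2* (-1.22, lower), are named after their values were seen. The sum was 479, 575 and 667 CPM in DKO libraries (lowest, median, highest), against 375, 401 and 639 CPM in CTRL libraries. The highest CTRL sum was that of CTRL 8, and the next, that of CTRL 5, was 430 CPM, below every DKO library. The r of this sum with *apoa1a* was 0.78 (rho 0.50) and with *apoa1b* 0.76 (rho 0.53), but these rested on few libraries and were 0.43 and 0.40 without the 2 farthest from the median.

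The remaining genes of the same pathways were counted in lists chosen by function. With TMM, 13.2% of all genes tested were called higher and 13.9% lower in DKO, and the counts of each list stand beside these shares. The counts depend on the scaling, and with scaling on the cardiomyocyte markers, under which 68.4% of all genes tested were called higher, those called higher became 2 of 9 other apolipoproteins, 16 of 18 genes of lipoprotein assembly and uptake, 17 of 26 plasma proteins, 2 of 7 yolk genes and 11 of 15 liver and endoderm markers. Of the other apolipoproteins, 11 of 18 symbols were in the table and 9 were tested, with 1 higher, 1 lower and a median log2 fold change of -0.17. *apom*, which encodes a carrier of sphingosine-1-phosphate on high-density particles, was at 11.2 CPM in the median DKO and 4.47 CPM in the median CTRL library, with 6 DKO libraries above all CTRL libraries (1.23, SE 0.36, adjusted p = 0.0155, edgeR). *apoa4b.2* was at 5.77 CPM in DKO and 9.73 CPM in CTRL, with 5 DKO libraries below all CTRL libraries (-1.01, SE 0.36, adjusted p = 0.04154, edgeR). On library size alone, where 22.2% of all genes tested were called higher, the counts of this list became 2 higher and 0 lower.

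Of 18 tested genes for the assembly and uptake of lipoproteins, 5 were higher and 0 lower in DKO (0 lower also at an unadjusted p under 0.05 and by DESeq2), with a median of 0.16. *lsr*, a lipoprotein receptor that is also part of tricellular junctions in epithelia, was at 103 CPM in the median DKO and 38.1 CPM in the median CTRL library, without overlap (1.41, SE 0.23, adjusted p = 0.000174, edgeR). *ldlra*, a gene for the LDL receptor, was at 6.46 CPM in DKO and 3.12 CPM in CTRL, also without overlap (1.21, SE 0.23, adjusted p = 0.0004898, edgeR). *lcat*, which esterifies cholesterol on high-density particles, was at 11.3 CPM in DKO and 3.47 CPM in CTRL (1.71, SE 0.33, adjusted p = 0.000704), and *angptl4*, an inhibitor of lipoprotein lipase, at 161 CPM in DKO and 96.4 CPM in CTRL (0.67, SE 0.16, adjusted p = 0.004595). The fifth, *lrpap1*, a chaperone of these receptors named after its value was seen, had a log2 fold change of 0.31 (SE 0.09). *mttp*, which loads lipid onto ApoB, did not pass, with 3.56 CPM in DKO and 2.89 CPM in CTRL (0.32, SE 0.37, adjusted p = 0.5776).

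Of 26 tested plasma proteins and clotting factors, 3 were higher in DKO, not above the 13.2% called higher over all genes tested. There were 0 lower (0 also at an unadjusted p under 0.05 and by DESeq2, which called 4 higher), and the median was 0.42. The 3 higher genes were the complement gene *c4b*, at 33.8 CPM in the median DKO and 8.08 CPM in the median CTRL library (2.36, SE 0.46, adjusted p = 0.001173, edgeR), the clotting factor gene *f5* (0.91, SE 0.27, adjusted p = 0.01697) and *cp*, which encodes ceruloplasmin (1.36, SE 0.46, adjusted p = 0.03098). The other fibrinogen chains did not pass, like *fgb*, with 0.08 (SE 0.40) for *fga* and 0.30 (SE 0.44) for *fgg*. The neighbour *serpina1l* was at 5.73 CPM in DKO and 3.48 CPM in CTRL (0.40, SE 0.32, adjusted p = 0.4055).

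Around the carriers of retinol and iron, 2 of 12 genes tested were higher and 3 lower in DKO (13.2% and 13.9% over all genes tested). Higher were *rbp4l* and *crabp2b*, a cellular retinoic acid binding protein (0.58, SE 0.19, adjusted p = 0.02328, edgeR). *tfr1a*, the transferrin receptor of erythroid cells in zebrafish, was at 6.94 CPM in the median DKO and 19.7 CPM in the median CTRL library, without overlap (-1.53, SE 0.21, adjusted p = 1.26e-05, edgeR). *fth1a*, a ferritin heavy chain, was at 310 CPM in DKO and 428 CPM in CTRL, also without overlap (-0.52, SE 0.08, adjusted p = 0.000113), and the iron transporter gene *slc11a2* was lower by a smaller step (-0.26, SE 0.09, adjusted p = 0.03414). On library size alone the counts were 5 higher (22.2% over all genes tested) and 2 lower, and with scaling on the cardiomyocyte markers 8 higher (68.4% over all genes tested) and 1 lower.

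Yolk genes gave little signal. Of the vitellogenin genes, *vtg3* alone was tested, with 1.81 CPM in the median DKO and 1.80 CPM in the median CTRL library (-0.01, SE 0.37), and *vtg1*, *vtg2*, *vtg4*, *vtg5*, *vtg6* and *vtg7* had at most 21 reads in any library. Of the 7 genes tested, the lysosomal proteases *ctsla* (0.44, adjusted p = 0.003362, edgeR) and *ctsba* (0.36, adjusted p = 0.02675) were higher, and the glycolytic gene *gpia* was lower (-0.97, adjusted p = 0.000139), all of which are used in many cell types.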

How the data were processed

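Poly(A) RNA of 16 pools of 48 hpf hearts was sequenced as paired reads of 150 bp. The authors aligned them with STAR 2.6.1a to GRCz11 and made the deposited counts per RefSeq gene with HTSeq 0.11.2; the strand setting is not given in the sources used here, so reads of overlapping genes on opposite strands cannot be told apart. The authors also deposited FPKM derived from the counts, and 9 of the 10 genes have a row. The sample titles gave group and replicate number.

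Entries naming no gene were left out (59.6% to 65.6% of entries on no feature and 12.8% to 16.4% not unique per library), so copies that share sequence lose reads. No library repeated another of its group (lowest chi-square per gene of any pair 22.0 in DKO and 10.9 in CTRL) and all were kept. Reads carry no molecular identifiers, so totals bound counting error only.

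Counts were tested with edgeR 4.0.16 in R 4.3.3 (filterByExpr, TMM, robust quasi-likelihood F-test, two-sided, no covariates, Benjamini-Hochberg over 11750 genes). The SE was obtained from the fold change and the square root of F. Ratios and deviations used log2(CPM + 0.5). The rule for naming genes took the 10 genes, up to 4 called genes with the lowest adjusted p of each list, defining markers, and the 3 genes most alike from pool to pool with a mean log2 CPM of at least 3. Other genes, such as *mttp*, *fga*, *fgg*, *serpina1l*, *vtg3* and the cluster of *apoa2*, were named for their function or place. The 10 genes and the lists were chosen with earlier results of these data known. Alternatives were DESeq2 1.42.0, other scalings and filters, limma 3.58.1 on log2 FPKM, the replicate number as a block, and each library left out. The fits were tested on simulated data. Gene order came from the RefSeq annotation of GRCz12tu, which matched all 10 symbols. Figures were drawn with matplotlib 3.10.9.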

Additional observations from a re-analysis of the deposited data

Results flagged for a closer look

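The CPM of the 10 genes in either group of 8 libraries made 20 sets of values. In each set the highest and the lowest library were set against the others. In 7 sets a library stood apart by a wider gap than Dixon's 95% limit. Chance alone gives about 1 such set in 20 if the values are normally distributed, which was not tested for these CPM. All 7 were gaps at the high end, which take up a smaller part of the range on a log2 scale. The limit was not applied on that scale, so the count of 7 holds for CPM only. In DKO hearts the library that stood apart was DKO 4 for *apobb.1*, with 678.9 CPM. The other 6 were all CTRL 8, with 371.7 CPM for *apoa1a*, 654.1 CPM for *apoa1b*, 598.1 CPM for *apoa2*, 416.4 CPM for *apobb.1*, 22.45 CPM for *fgb* and 18.06 CPM for *serpina1*. These genes vary together from pool to pool, so the 6 are not independent of each other. The cause was not tested.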

How the results depend on the processing

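*apoeb* was called higher under each of 11 other settings (log2 fold change 0.96 to 1.98) and with each library left out (1.08 to 1.33; adjusted p 0.003934 to 0.01917, edgeR). Scaling on the cardiomyocyte markers raised the number of the 10 genes called higher to 7, with 68.4% of all genes called higher, and turned the sign of *apoea* (0.23), *tfa* (0.60, adjusted p = 0.02003, edgeR) and *fgb* (0.83). Library size alone moved the median of all genes by 0.15 and the share of lower calls to 31.0%, against 51.2%. The sign of *fgb*, near 0, also turned on library size alone (0.12), with the replicate block (0.077) and with limma on log2(FPKM + 1) (0.10) and log2(FPKM + 0.1) (0.20). Without CTRL 1 and 3, left out together after seeing the data as the CTRL libraries with the least epidermis signal, *apoa1a* (-0.021), *apoa1b* (-0.00028) and *apoa2* (-0.031) turned negative.

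With each library left out in turn, 1 to 2 genes were called higher (2 without CTRL 8) and 0 to 0 lower. Fold changes ran from -0.012 to 0.53 (*apoa1a*), 0.030 to 0.49 (*apoa1b*), -0.14 to 0.50 (*apoa2*), -0.65 to -0.29 (*apoea*), 0.23 to 1.16 (*apobb.1*), 0.41 to 0.77 (*rbp4*), -0.30 to -0.14 (*tfa*), -0.12 to 0.36 (*fgb*) and 0.10 to 0.73 (*serpina1*). Log2 ratio differences ran from 1.55 to 1.97 (*apoeb* over *apoea*), -0.048 to 0.064 (*apoa1b* over *apoa1a*), -0.15 to -0.033 (*apoa2* over *apoa1b*), -1.07 to -0.62 (*rbp4* over *rbp4l*), -0.041 to 0.17 (*apoeb* over epidermis markers), -0.59 to -0.29 (*rbp4* over epidermis markers) and 0.87 to 1.36 (*apoeb* over *apoa2*, adjusted p 0.03869 to 0.2615, exact permutation).

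Libraries of the same replicate number did not deviate together (correlations -0.25 to 0.14; 0 of 8 correlated best with their own number), so numbers are not taken as pairs. With the replicate block, *apoeb* was at 1.26 (adjusted p = 0.02501, edgeR) and *apoeb* over *apoea* at 1.70 (adjusted p = 0.125, exact sign-flip permutation), no longer past the threshold; 1 of the 10 genes was called. *apoa1a* has no FPKM and no value in the limma settings. Depth limits *fgb*, *serpina1* and *apoea*, with 23, 24 and 46 reads in their lowest libraries. Where a call changed, the cause was not tested.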
